A study of Mus musculus with 32 samples.

Results

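The transcripts described here are 32 genes known from neurons and synapses, measured in libraries made from glia. They were chosen by name for what they do in neurons, with earlier results of these data known. They are 32 of the 55291 genes in the astrocyte and oligodendrocyte tables. By role they fall into 6 groups, which are synaptic vesicle genes (Snap25, Syt1, Syp, Syn1, Syn2), transmitter synthesis and vesicle loading genes (Slc17a7, Slc17a6, Gad1, Gad2, Slc32a1), postsynaptic receptor and signalling genes (Camk2a, Grin1, Grin2b, Gria1, Gria2, Nrgn, Dlg4), cytoskeleton and axon growth genes (Nefl, Nefm, Stmn2, Stmn3, Tubb3, Map2, Gap43, Kif5c, Mapt), RNA-binding proteins of neurons (Rbfox3, Celf4, Elavl4), and a group for the cell surface, ubiquitin and calcium (Thy1, Uchl1, Vsnl1). The question was at what level these transcripts stood in each glial library, and whether they moved together from library to library and from age to age.

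Every sample was TDP-43_Q331K, that is, transgenic for a mutant RNA-binding protein used to model amyotrophic lateral sclerosis, and mice without it were not analysed here. The sources used here do not name the promoter that drives it. Astrocytes taken with an ACSA2 antibody came from cortex and spinal cord of mice aged 3 months (4 libraries), 6 months (5 libraries) and 10 months (2 libraries). Cells of the oligodendrocyte lineage taken with an O4 antibody came from cortex and spinal cord at 6 months (4 libraries) and 3 months (4 libraries). Microglia taken with a Cd11b antibody came from cortex alone at 10 months (4 libraries) and 3 months (3 libraries). Primary astrocytes were cultured for 14 days, replated and treated with 40 µM Omomyc, a miniprotein that blocks MYC, for 48 hours (3 libraries), or with vehicle (3 libraries). The labels do not say whether libraries of a group came from separate mice or cultures, so each p-value measures only the spread between these libraries.

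In a neuron, Snap25, Syt1, Syp and the synapsins belong to the machinery that holds and fuses transmitter vesicles. Slc17a7 and Slc17a6 load glutamate into those vesicles, Slc32a1 loads GABA, and Gad1 and Gad2 make GABA. Glia lack most of this machinery, but some of the 32 genes are also known from glia or their precursors: tau (Mapt), Map2, the AMPA receptor subunits Gria1 and Gria2, Gap43 and Tubb3. RNA that all came from 1 carried source would keep its genes in 1 ratio in every library, which is why ratios between the genes are given beside their levels.

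Astrocyte libraries held 6151583 to 20763190 counts and oligodendrocyte libraries 9752907 to 18598533. Microglial libraries were shallower, at 4145129 to 5612071 counts, and culture libraries deepest, at 30117025 to 37470972. The 14 astrocyte markers summed to between 26845 and 40682 CPM, which are counts scaled to library size with TMM factors in astrocyte libraries, against 532 to 812 CPM in oligodendrocyte libraries. The 16 markers of myelinating oligodendrocytes summed to between 18088 and 41725 CPM in astrocyte libraries, against 88998 to 174892 CPM in oligodendrocyte libraries, so the astrocyte libraries also held oligodendrocyte RNA. In microglia the 14 microglial markers summed to between 26994 and 46788 CPM. In culture the defining astrocyte gene Gfap stood between 3459 and 4525 CPM, beside a sum of 1926 to 4437 CPM for microglial markers. Of all counts in a library, the 32 neuronal genes took 0.156% to 0.186% in astrocytes. They took 0.180% to 0.242% in oligodendrocytes and 0.0138% to 0.0252% in microglia. Cultures list 30 of the 32, which took 0.115% to 0.132%.

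Levels of different genes were compared in TPM, a unit scaled to the library and to transcript length. Mapt, the microtubule-binding protein tau, was the most abundant of the 32 in both cell types. It averaged 262 ± 45.9 TPM in astrocytes of 3 and 6 months (SD, n = 9) and 599 ± 45.5 TPM in oligodendrocytes (SD, n = 8). Next in astrocytes came Map2 at 73.8 ± 6.63 TPM and Gria2 at 70.8 ± 19.4 TPM, which did not differ beyond their spread, then Thy1, a surface glycoprotein of neurons, at 70.6 ± 14.7 TPM. In oligodendrocytes Tubb3, a neuronal beta-tubulin, came next at 187 ± 84.4 TPM, then Uchl1, a deubiquitinase, at 156 ± 50.1 TPM and Kif5c, a heavy chain of the kinesin motor, at 129 ± 64.1 TPM. These 3 overlapped within their SDs, and their order differed between ages. At 6 months Kif5c averaged 183 TPM, Tubb3 153 TPM and Uchl1 115 TPM, against 75.5, 220.2 and 197 TPM at 3 months. In astrocytes Gria2 averaged 83.01 TPM at 6 months, above Map2 at 75.2 TPM and Thy1 at 74.9 TPM, and 55.6 TPM at 3 months, below Map2 at 72.2 TPM and Thy1 at 65.1 TPM.

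The genes that most narrowly mark neurons were far lower. Snap25, a SNARE protein of the vesicle fusion machinery (chromosome 2, 136713453 to 136782428, plus strand, GRCm38), averaged 9.41 ± 3.67 TPM in astrocytes and 13.9 ± 7.00 TPM in oligodendrocytes. Rbfox3, the splicing regulator known as NeuN, averaged 1.08 ± 0.557 TPM in astrocytes and 0.830 ± 0.434 TPM in oligodendrocytes. Slc17a7, the vesicular glutamate transporter of cortical neurons, averaged 0.590 ± 0.346 TPM in astrocytes and 0.957 ± 0.948 TPM in oligodendrocytes. The GABA genes Gad1, Gad2 and Slc32a1 averaged between 0.280 and 0.901 TPM in these cell types. None of these 6 genes was absent from a cell type, and the ranges of the libraries overlapped between astrocytes and oligodendrocytes for each of them. The overlap did not extend to Slc17a6, the other vesicular glutamate transporter. It lay between 0.664 and 2.23 TPM in astrocytes, against 0.0375 to 0.416 TPM in oligodendrocytes.

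**Figure D1:**
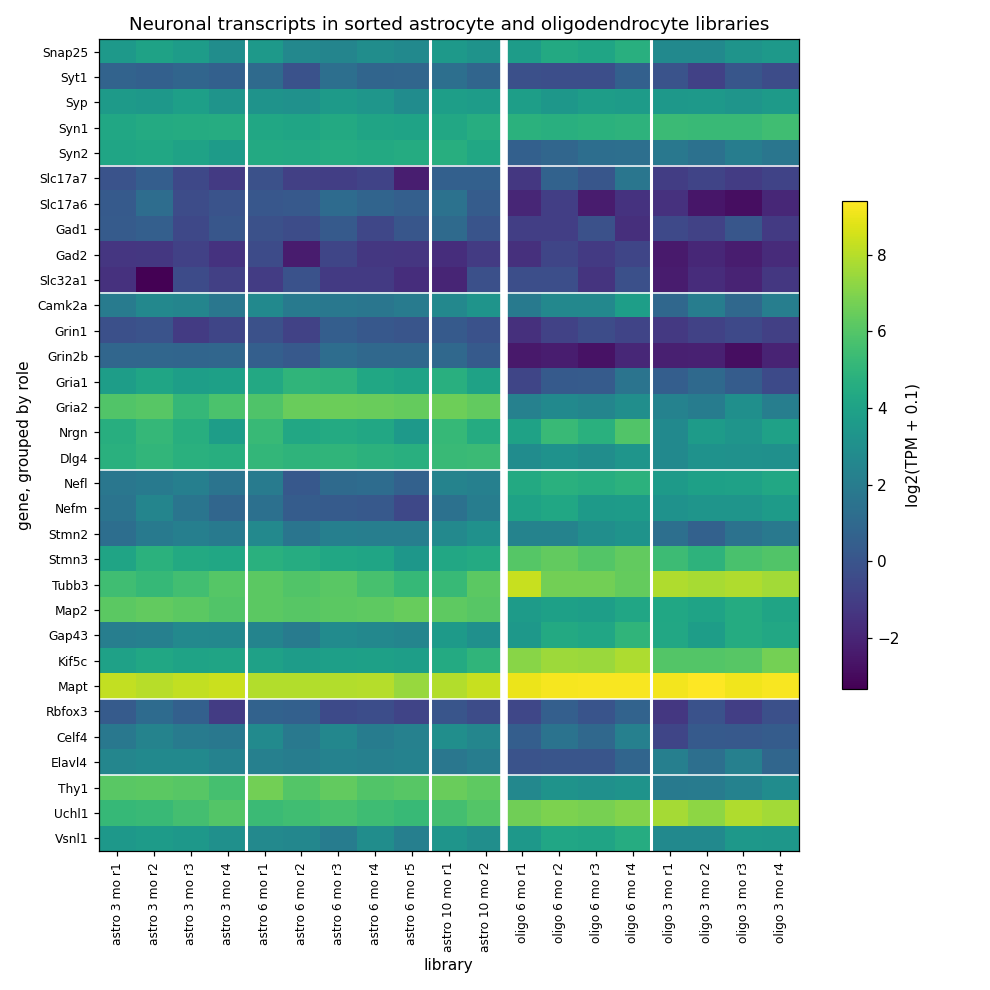
Level of each of the 32 transcripts as log2(TPM + 0.1) by colour, with 1 row per gene, white lines between role groups, and 1 column per library of astrocytes at 3, 6 and 10 months and of oligodendrocytes at 6 and 3 months. Mapt is brightest in every column, the Gria2, Map2 and Thy1 rows are brighter in astrocytes, and the Kif5c, Nefl and Uchl1 rows are brighter in oligodendrocytes.

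Astrocytes and oligodendrocytes differed in many of these transcripts, at a share near that of all genes. In the joint fit of the 17 libraries of 3 and 6 months, 11 of 31 tested genes were higher and 12 lower in astrocytes at an adjusted p under 0.05 (edgeR quasi-likelihood test, Benjamini-Hochberg adjustment), where 38.7% and 35.9% of all 16363 tested genes were called in those directions, 74.6% in all. The median log2 fold change over the 31 genes was -0.10, and it was 0.03 over all genes tested. All 23 calls held in every fit that left 1 library out. Slc32a1 did not pass the filter on low counts.

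Of the 7 postsynaptic genes 4 were higher in astrocytes and none lower. The NMDA receptor subunit Grin2b was higher by a log2 fold change of 3.75 ± 0.21 (SE; adjusted p = 1.11e-12), Gria1 by 3.52 ± 0.24 (adjusted p = 3.8e-10), Gria2 by 3.29 ± 0.17 (adjusted p = 7.85e-12), and the postsynaptic scaffold Dlg4 (PSD-95) by 1.54 ± 0.09 (adjusted p = 2.85e-12) in the edgeR fit. Thy1 was higher by 3.18 ± 0.15 (edgeR adjusted p = 3.95e-13). The other genes called higher were Syt1, Slc17a6, Celf4, Elavl4, Map2 and Syn2. Syn2, a vesicle phosphoprotein, was higher by 2.61 ± 0.11 (edgeR adjusted p = 1.94e-14), but its exons overlap those of Timp4 on the opposite strand, which was itself higher by 3.49 ± 0.13, and it is not stated whether the counting used strand.

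Of the 9 cytoskeleton and axon growth genes 7 were lower in astrocytes, 1 was higher and 1, Stmn2, did not pass. The higher one was Map2, at 1.85 ± 0.09 (edgeR adjusted p = 1.77e-13). Kif5c stood at a log2 fold change of -3.20 ± 0.12 (edgeR adjusted p = 7.32e-15). The neurofilament light chain Nefl stood at -3.19 ± 0.16 (edgeR adjusted p = 1.76e-13) and the medium chain Nefm at -2.98 ± 0.22 (edgeR adjusted p = 4.74e-10). The annotated exons of Nefl and Nefm overlap on opposite strands, so reads of the pair may not be fully separable. Snap25 stood at -0.76 ± 0.20 (edgeR adjusted p = 0.00223) and Vsnl1, a neuronal calcium sensor, at -0.98 ± 0.18 (edgeR adjusted p = 5.9e-05). Both values average over 3 and 6 months, and the ages differed. At 6 months Snap25 lay between 5.39 and 11.2 TPM in astrocytes, against 12.9 to 25.6 TPM in oligodendrocytes. At 3 months it lay between 7.46 and 15.9 TPM, against 6.41 to 11.5 TPM. Vsnl1 likewise was lower in every astrocyte library at 6 months. At 3 months it lay between 8.28 and 12.5 TPM, against 6.53 to 10.8 TPM. Slc17a7, Gad1, Camk2a, Nrgn, Stmn2 and Rbfox3 did not pass the test, with log2 fold changes between -0.84 and 0.49.

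Set against Snap25 in the same library, the 31 other genes split. For 10 of them the mean TPM ratio to Snap25 differed by less than 2-fold between astrocytes and oligodendrocytes, and for 19 the ranges of the libraries overlapped. The ratio of Vsnl1 to Snap25 was 0.848 on average in astrocytes, from 0.566 to 1.11, and 0.962 in oligodendrocytes, from 0.842 to 1.14. That of Slc17a7 was 0.0606 in astrocytes and 0.0617 in oligodendrocytes, and that of the kinase Camk2a was 0.484 in astrocytes and 0.364 in oligodendrocytes. These genes therefore stood in about the same proportion to Snap25 in both cell types.

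For 12 of the 31 the ratio differed by 4-fold or more. The ratio of Thy1 to Snap25 lay between 4.53 and 15.2 in astrocytes, against 0.359 to 0.614 in oligodendrocytes, and the ranges did not meet. That of Nefl lay between 0.167 and 0.390 in astrocytes, against 1.11 to 2.30 in oligodendrocytes. That of Kif5c lay between 1.20 and 2.69 in astrocytes, against 7.13 to 11.0 in oligodendrocytes. Those 12 ratios include receptor, scaffold and axon genes alike. Across the 32 genes the log2(TPM + 0.1) means of astrocytes and oligodendrocytes had a Pearson r of 0.77, a description over 32 genes that share libraries.

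**Figure D2:**
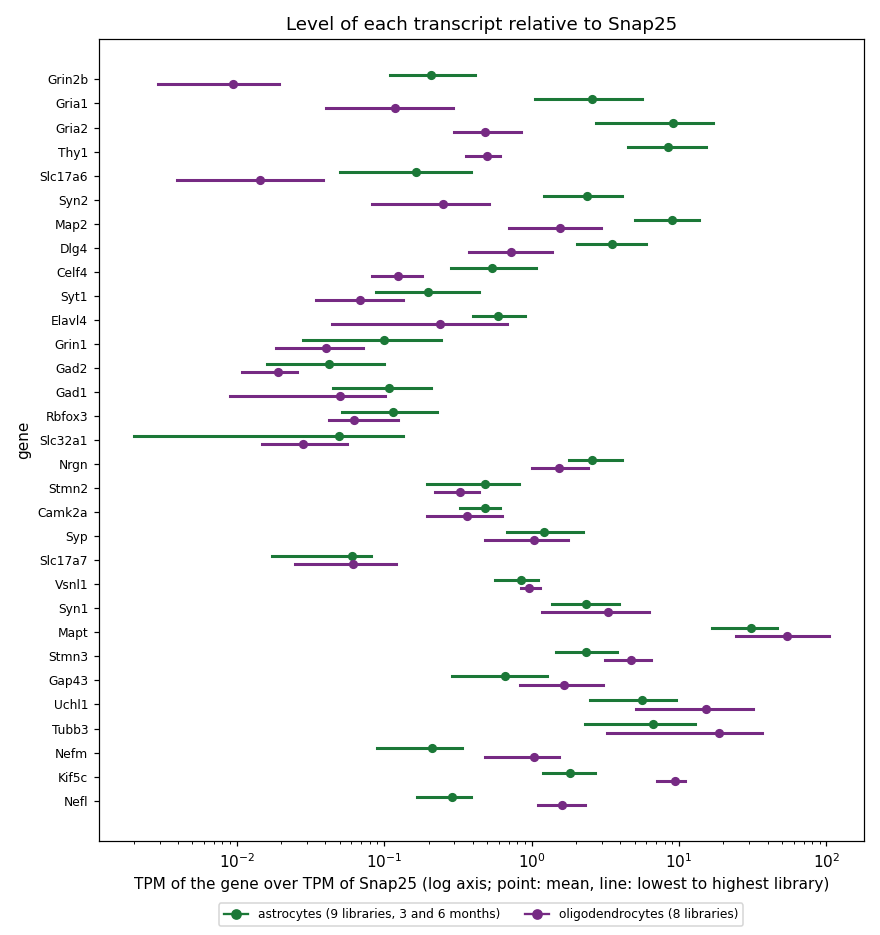
TPM of each gene over that of Snap25 in the same library, on a log axis, with the mean as a point and a line from the lowest to the highest library, astrocytes (green, 9 libraries) above oligodendrocytes (purple, 8 libraries). Genes in the middle, such as Vsnl1 and Slc17a7, coincide between cell types, while Grin2b, Thy1, Kif5c and Nefl do not; the astrocyte line of Slc32a1, whose lowest library is at 0, is cut off at its left end.

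In oligodendrocyte lineage cells 12 of the genes, among them Snap25, Nrgn, Kif5c, Stmn2 and Vsnl1, were higher at 6 than at 3 months, while Syn1, Elavl4 and Uchl1 were lower. Of 29 tested genes, 12 were higher and 3 lower at 6 months, where 14.9% and 9.46% of all 14050 tested genes were called in those directions, 24.4% in all. The median log2 fold change was 0.42 over the 29 genes and 0.02 over all genes, and 22 of the 29 (75.9%) had a positive value, against 52.3% of all genes. Slc17a6, Gad2 and Slc32a1 did not pass the filter. In bulk RNA, more cells of a type and more RNA per cell cannot be told apart.

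Among vesicle genes, Snap25 stood at 24.7, 46.9, 34.6 and 53.7 CPM in the libraries of 6 months, against 11.3, 11.5, 16.3 and 20.6 CPM in those of 3 months. Every library of 6 months was above every library of 3 months, and the log2 fold change was 1.42 ± 0.27 (edgeR adjusted p = 0.00702). Syp, an integral protein of the vesicle membrane, rose by only 0.38 ± 0.10 (edgeR adjusted p = 0.025). Syn1, a phosphoprotein that tethers vesicles (chromosome X, 20860511 to 20921004, minus strand, GRCm38), went the other way, with 26.1, 27.3, 26.7 and 30.7 CPM at 6 months, against 34.5, 33.5, 32.4 and 39.0 CPM at 3 months. The groups did not overlap, and it fell by 0.33 ± 0.09 (log2 fold change -0.33, edgeR adjusted p = 0.0198). Exons of Syn1 overlap Araf on the opposite strand, which did not pass the test (log2 fold change 0.10 ± 0.07). Syt1, the calcium sensor of vesicle fusion, did not pass (0.50 ± 0.32).

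The sequences before the start sites of genes that rose and of Syn1, which fell, are shown because neuronal genes are known to share the RE1 element, to which the repressor REST binds outside neurons. RefSeq windows (GRCm38.p6) were matched for 21 of the 32 genes, and the stretches below hold no annotated exon. They read 5′ to 3′ on the gene's strand, and capitals mark CAGCACC, 7 letters from the left part of RE1, searched on both strands. Slc17a7 is at chr7:45163671-45163920 (+), Kif5c at chr2:49619036-49619285 (+) and Syn1 at chrX:20921005-20921168 (-).
Slc17a7: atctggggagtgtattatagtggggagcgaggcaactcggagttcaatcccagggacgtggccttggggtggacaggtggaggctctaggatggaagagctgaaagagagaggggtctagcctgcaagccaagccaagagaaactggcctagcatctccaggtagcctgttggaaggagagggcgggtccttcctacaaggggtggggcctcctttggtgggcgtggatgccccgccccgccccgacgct
Kif5c: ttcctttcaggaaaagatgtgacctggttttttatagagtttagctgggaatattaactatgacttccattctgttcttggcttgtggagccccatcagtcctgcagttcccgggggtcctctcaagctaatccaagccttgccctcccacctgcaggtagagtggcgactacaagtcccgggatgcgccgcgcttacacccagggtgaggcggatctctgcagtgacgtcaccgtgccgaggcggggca
Syn1: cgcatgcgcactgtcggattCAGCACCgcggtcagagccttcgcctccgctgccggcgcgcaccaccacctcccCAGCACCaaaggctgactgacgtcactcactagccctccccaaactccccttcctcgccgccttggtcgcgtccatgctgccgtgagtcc

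The 7 letters occur in the 250 bases upstream of 2 of the 21 matched genes, Syn1 and Tubb3, and in 6.56% of all genes with such a window. Syn1 holds them at 2 places. A match is a run of letters and not a shown binding site.

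Among the genes for loading and making transmitter, Slc17a7 stood at 0.485, 2.66, 1.49 and 5.13 CPM at 6 months, against 0.556, 0.718, 0.512 and 0.696 CPM at 3 months. The groups overlapped, since the first replicate of 6 months was below every library of 3 months, and the other libraries of 6 months were above. The log2 fold change was 1.93 ± 0.58 (edgeR adjusted p = 0.0371), a call lost when any of 6 of the 8 libraries was left out. Gad1 did not pass (-0.14 ± 0.40). Gad2 lay between 0.405 and 1.03 CPM at 6 months, against 0.139 to 0.309 CPM at 3 months, and was not tested.

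Among postsynaptic genes, Nrgn rose alone of 7. Nrgn encodes neurogranin, which binds calmodulin in dendrites (chromosome 9, 37544492 to 37552904, minus strand, GRCm38). It stood at 6.64, 18.2, 11.2 and 27.6 CPM at 6 months, against 2.43, 4.77, 3.63 and 5.87 CPM at 3 months, with no overlap and a log2 fold change of 1.92 ± 0.44 (edgeR adjusted p = 0.0151). Camk2a had 7.44, 14.5, 12.8 and 31.9 CPM at 6 months, against 3.54, 7.95, 3.48 and 8.43 CPM at 3 months, and just missed the threshold (1.50 ± 0.49, edgeR adjusted p = 0.0571). Gria1, Gria2, Grin1, Grin2b and Dlg4 had log2 fold changes between 0.15 and 0.42, and none passed.

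Of the 9 cytoskeleton and axon growth genes 5 rose and none fell. Kif5c (chromosome 2, 49619298 to 49774778, plus strand, GRCm38) had the smallest p among the 32 genes. It stood at 286, 424, 362 and 512 CPM at 6 months, against 119, 118, 122 and 201 CPM at 3 months, and rose by 1.50 ± 0.22 on the log2 scale (edgeR adjusted p = 0.00196). All libraries of 6 months were higher than those of 3 months, among which the fourth replicate stood apart from the rest. Stmn2, which controls microtubule growth in axons, stood at 7.93, 9.26, 12.5 and 15.7 CPM at 6 months, against 3.54, 2.10, 3.84 and 5.10 CPM at 3 months. It rose by 1.64 ± 0.28 (edgeR adjusted p = 0.00299) with no overlap between ages. Nefl rose by 0.92 ± 0.16 (edgeR adjusted p = 0.00331), Nefm by 0.77 ± 0.19 (edgeR adjusted p = 0.0151) and Stmn3 by 0.86 ± 0.22 (edgeR adjusted p = 0.0191).

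The 4 other cytoskeleton genes did not pass, and all 4 are among those known also from glia or precursors. Mapt stood at 1110, 1440, 1335 and 1440 CPM at 6 months, against 1130, 1327, 1077 and 1238 CPM at 3 months, with a log2 fold change of 0.16 ± 0.11. Tubb3 stood at 171, 61.6, 55.2 and 48.2 CPM at 6 months, against 114, 102, 113 and 96.1 CPM at 3 months. The first replicate of 6 months was above and the other libraries of 6 months were below every library of 3 months. Map2 (-0.11 ± 0.15) and Gap43, a growth cone protein (0.34 ± 0.31), had values within the spread.

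The RNA-binding genes diverged. Celf4, which binds mRNAs of excitatory neurons, rose by 1.64 ± 0.42 (edgeR adjusted p = 0.0191), with no overlap between ages. Elavl4, which stabilises mRNAs in neurons and their precursors (chromosome 4, 110203722 to 110351909, minus strand, GRCm38), stood at 1.29, 1.63, 1.41 and 2.84 CPM at 6 months, against 6.11, 3.44, 6.09 and 2.47 CPM at 3 months. It fell by 1.37 ± 0.35 (log2 fold change -1.37, edgeR adjusted p = 0.0188), although the fourth replicate of each age overlapped the other age. Rbfox3 had a log2 fold change of 1.12 ± 0.42 and did not pass (edgeR adjusted p = 0.0768). In the last group Vsnl1 (chromosome 12, 11325242 to 11436613, minus strand, GRCm38) rose by 1.25 ± 0.28 (edgeR adjusted p = 0.00935), Thy1 rose by 0.98 ± 0.25 with overlapping groups (edgeR adjusted p = 0.0186), and Uchl1 fell by 0.56 ± 0.14 (log2 fold change -0.56, edgeR adjusted p = 0.0193).

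Of the 15 calls in oligodendrocytes, 5 were kept with each library left out, and these were Snap25, Nefl, Stmn2, Kif5c and Vsnl1. Leaving out the first or the third replicate of 3 months gave 7 and 9 calls in place of 15, and the range over the 8 such fits was 7 to 19.

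**Figure D3:**
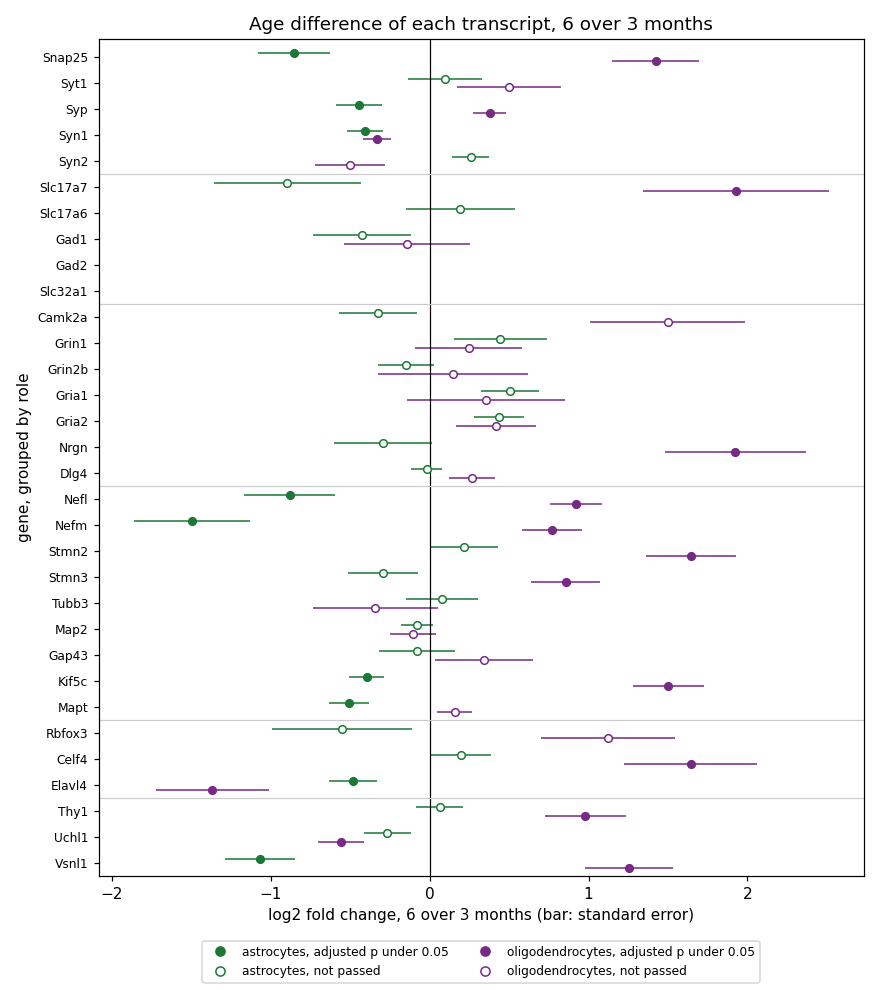
Log2 fold change of each of the 32 genes at 6 over 3 months, as points with standard error bars, for astrocytes (green) above oligodendrocytes (purple), filled where the adjusted p was under 0.05. Purple points such as Snap25, Nrgn and Kif5c lie to the right and green points such as Nefm and Vsnl1 to the left, with Syn1 and Elavl4 to the left in both.

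Genes of the same systems outside the 32 are read against the shares of 14.9% higher and 9.46% lower over all genes. Of 27 tested other vesicle and active zone genes, 9 were higher and 2 lower at 6 months (median log2 fold change 0.29), among them the synuclein Sncb (1.64 ± 0.25, edgeR adjusted p = 0.0015) and the Rab3 effector Rph3a (2.01 ± 0.38, edgeR adjusted p = 0.00749). Of 23 tested channel and receptor genes, 3 were higher and 3 lower (median 0.14), which is near those shares. Of 10 tested genes of immature neurons, 2 were higher and 4 lower, with Dcx, a microtubule protein of migrating neuroblasts, at -1.77 ± 0.30 (edgeR adjusted p = 0.00253). Of 15 tested precursor genes of the oligodendrocyte lineage, 5 were lower and none higher, with Pdgfra at -1.69 ± 0.31 (edgeR adjusted p = 0.00664).

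Markers of other cells moved with the same comparison. All 14 endothelial genes were higher at 6 months (median log2 fold change 2.77), with sums of 422, 783, 1192 and 890 CPM at 6 months, against 109, 135, 114 and 149 CPM at 3 months. Of 9 tested mural and fibroblast genes, 7 were higher (median 2.32), and of 12 immediate early genes, induced fast by stimulation, 10 were higher (median 0.97). Each of the 14 endothelial genes was detected in every oligodendrocyte library. Within the 6 month group the third replicate had the highest endothelial sum and the fourth the highest Snap25, Nrgn and Camk2a. Their part in the rise of the neuronal genes was not tested.

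In astrocytes the calls at 6 months were all downward, while the summed level of the genes had no settled direction. Of 30 tested genes none was higher and 9 were lower than at 3 months, where 6.28% and 8.29% of all 16189 tested genes were called in those directions, 14.6% in all. The median log2 fold change was -0.28 over the 30 genes and 0.00338 over all genes, and 10 of the 30 (33.3%) had a positive value, against 50.5% of all genes. Gad2 and Slc32a1 did not pass the filter at any age of astrocytes.

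Vsnl1, which had the smallest p of the 9, stood at 3.45, 3.20, 1.98, 3.90 and 2.45 CPM at 6 months, against 6.58, 7.20, 6.52 and 4.88 CPM at 3 months, with no overlap and a log2 fold change of -1.07 ± 0.22 (edgeR adjusted p = 0.00485). Nefm stood at 4.05, 1.92, 1.67, 1.69 and 0.928 CPM at 6 months, against 5.07, 9.10, 5.30 and 3.01 CPM at 3 months. Its groups overlapped through the first replicate of 6 months and the fourth of 3 months, and its log2 fold change of -1.50 ± 0.37 (edgeR adjusted p = 0.0128) was the largest of the 9. Mapt stood at 513, 520, 474, 515 and 360 CPM at 6 months, against 689, 585, 679 and 754 CPM at 3 months, with no overlap and a log2 fold change of -0.51 ± 0.12 (edgeR adjusted p = 0.0118).

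Snap25 stood at 21.1, 11.5, 9.29, 13.8 and 12.2 CPM at 6 months, against 24.2, 31.6, 27.0 and 15.3 CPM at 3 months. The groups overlapped, with the first replicate of 6 months above the fourth of 3 months, and the log2 fold change was -0.85 ± 0.22 (edgeR adjusted p = 0.0203). The other calls were Nefl (-0.88 ± 0.29), Elavl4 (-0.48 ± 0.15), Syp (-0.45 ± 0.14), Syn1 (-0.40 ± 0.11) and Kif5c (-0.39 ± 0.11), with edgeR adjusted p-values between 0.0234 and 0.0472. None of the 3 tested transmitter genes and none of the 7 postsynaptic genes passed, and Gria1 (0.51 ± 0.18) and Gria2 (0.44 ± 0.16) had positive values. Thy1 (0.06 ± 0.15), Stmn2 (0.22 ± 0.21), Gap43 (-0.08 ± 0.24), Syt1 (0.10 ± 0.23), Gad1 (-0.43 ± 0.31), Slc17a7 (-0.89 ± 0.46) and Rbfox3 (-0.55 ± 0.44) did not pass either.

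Only Nefm, Mapt and Vsnl1 of the 9 calls were kept with each library left out. The count was 3 without the third replicate of 3 months and 5 without the second replicate of 3 months or the third or the fourth of 6 months. Myelinating oligodendrocyte markers fell in the same comparison, with 8 of 16 lower and none higher (median -0.53). Their sums were between 18088 and 27633 CPM at 6 months, against 26506 to 41725 CPM at 3 months. In the joint fit over both ages, 8 of the 9 genes that fell, all but Elavl4, were lower in astrocytes than in oligodendrocytes. That fit includes the libraries of 6 months, so the fall itself enters it. At 3 months alone, Syn1, Nefl, Nefm, Kif5c and Mapt had less TPM in every astrocyte library than in any oligodendrocyte library. The ranges of Snap25, Syp and Vsnl1 overlapped between the cell types at that age. Choroid plexus and ependyma markers summed to between 1792 and 2113 CPM at 6 months, against 2500 to 4310 CPM at 3 months, with 4 of 11 lower and 4 higher. Endothelial markers averaged 313 ± 116 CPM at 6 months (SD, n = 5) and 497 ± 130.4 CPM at 3 months (SD, n = 4), with 2 of 14 lower. The part of such RNA in the fall of the 9 genes was not tested. Of 30 other vesicle and active zone genes 2 were higher and 3 lower, with the scaffold protein Pclo at -0.56 ± 0.11 (edgeR adjusted p = 0.00349), and of 26 channel and receptor genes 1 was higher and 5 lower.

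The age effect differed between the cell types for many of the 32 genes. In the joint fit, the age effect in astrocytes minus that in oligodendrocytes passed the threshold as negative for 13 and as positive for 1 of 31 tested genes, where 9.97% and 6.44% of all genes were called in those directions, 16.4% in all. By sign alone it was below 0 for 22 of the 31 and above 0 for 9 (29.0%), where 51.5% of all genes were above 0. The median difference was -0.74 over the 31 genes and 0.02 over all genes. Kif5c differed by -1.81 ± 0.23 (edgeR adjusted p = 5.27e-05), Vsnl1 by -2.24 ± 0.36 (edgeR adjusted p = 0.000331), Nefl by -1.71 ± 0.33 (edgeR adjusted p = 0.00133), Snap25 by -2.20 ± 0.40 (edgeR adjusted p = 0.00134) and Nefm by -2.18 ± 0.45 (edgeR adjusted p = 0.00286). Of the 14 calls 9 were kept with each library left out. In the same fit all 14 endothelial genes and 9 of 11 mural and fibroblast genes had a negative difference that passed.

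Of the 29 genes tested in both cell types, 15 had a positive estimate in oligodendrocytes and a negative one in astrocytes, 7 were positive in both, 5 negative in both and 2 the reverse. Syn1 and Elavl4 fell in both.

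At 10 months few of the genes were called in astrocytes. Against 3 months, 2 of 30 tested genes were higher and 1 lower, where 11.5% and 11.2% of all genes were called in those directions, 22.7% in all. The median log2 fold change was 0.16 over the 30 genes and 0.02 over all genes. Stmn2 stood at 8.79 and 12.5 CPM at 10 months, against 3.88, 6.11, 7.34 and 6.02 CPM at 3 months, and rose by 0.88 ± 0.26 (edgeR adjusted p = 0.0219). Kif5c stood at 39.8 and 58.7 CPM at 10 months, against 33.8, 39.8, 36.0 and 37.4 CPM at 3 months, and rose by 0.43 ± 0.14 (edgeR adjusted p = 0.0338). Elavl4 stood at 4.39 and 5.66 CPM at 10 months, against 9.28, 10.2, 10.6 and 7.84 CPM at 3 months, and its log2 fold change was -0.89 ± 0.21 (edgeR adjusted p = 0.00583). The groups overlapped for Kif5c alone of these 3.

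Against 6 months, 1 of 30 genes was higher and none lower, where 0.574% and 0.334% of all genes were called in those directions, 0.908% in all. That gene was Kif5c, at 39.8 and 58.7 CPM at 10 months, against 31.2, 25.8, 26.3, 28.6 and 27.9 CPM at 6 months, with a log2 fold change of 0.82 ± 0.13 (edgeR adjusted p = 0.0108). The median was 0.27 over the 30 genes and 0.02 over all genes. These comparisons share libraries with the others of astrocytes, so Kif5c is given side by side at -0.39 for 6 over 3 months, 0.82 for 10 over 6 months and 0.43 for 10 over 3 months.

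Each call at 10 months was lost in at least 1 fit that left a library out. For Elavl4 over 3 months and Kif5c over 6 months the only such fit left out 1 of the 2 libraries of 10 months, in which the lone library is assumed to vary like the other groups. The count against 3 months was 1 without the first replicate of 3 months or the second of 10 months and 5 without the second of 3 months, and that against 6 months was 0 without the second replicate of 10 months and 4 without the first of 6 months. Libraries of 10 months also differed in makeup, with the transcript CT010467.1 at 0.243% to 0.290% of counts, against 2.21% to 4.82% at 3 months, with 11 of 13 immediate early genes higher and with 9 of 12 spinal Hox genes higher than at 3 months. Their part in these values was not tested.

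Within groups the genes deviated together in some tables and hardly in others. Each library was compared with the mean of its own group in log2 CPM. In oligodendrocytes of 6 months 3, 22, 6 and 26 of the 29 genes stood above the group mean in replicates 1 to 4, and in those of 3 months 11, 11, 17 and 20 did. The fourth replicate of 6 months, high in 26 of 29 genes, was also the shallowest oligodendrocyte library with 9752907 counts. The mean correlation over the 406 pairs of genes was 0.35 over 8 libraries, and it was 0.000250 over all pairs of genes tested. In astrocytes the mean over 435 pairs was 0.13 over 11 libraries, beside 0.00165 over all pairs, and between 10 and 22 of 30 genes stood above the group mean in a library. In microglia the mean was 0.22 over 136 pairs and 7 libraries, and in culture it was 0.03 over 351 pairs and 6 libraries, with 52.4% of the pairs above 0. Differences between the tables were not tested. These correlations are descriptions, since the genes share libraries and the libraries are few. Scaling of libraries keeps the mean over all pairs small, and it was between 0.000250 and 0.00165 in every table. That mean is therefore not a background for a chosen set of genes.

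Single genes showed who moved with whom. In oligodendrocytes 15 of 28 genes had a within-group correlation with Snap25 of at least 0.7, led by Vsnl1 (0.97), Thy1 (0.95), Nefl (0.92), Kif5c (0.92) and Nrgn (0.86). Tubb3 ran against it at -0.71, and Syp (-0.04) and Elavl4 (0.14) did not follow it. In astrocytes 6 of 29 genes reached 0.7, which were Nrgn (0.81), Rbfox3 (0.80), Vsnl1 (0.77), Thy1 (0.75), Camk2a (0.73) and Nefm (0.72), while Uchl1 stood at -0.64, Gria2 at -0.30 and Mapt at -0.21. Vsnl1, Nrgn, Thy1 and Rbfox3 reached 0.7 in both cell types, although Thy1 stood at quite different proportions to Snap25. The share of all tested genes that reach 0.7 with Snap25 was not computed. These counts therefore have no background and are not read as particular to the 32 genes. Outside the 32, the genes most correlated with their summed level were Ccdc28b (0.96) in astrocytes and Samd4 (0.99) in oligodendrocytes. Each was picked as the highest of all tested genes, over 11 and 8 libraries. Mapt is the largest part of that sum, so no link to the other genes is read from it.

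**Figure D4:**
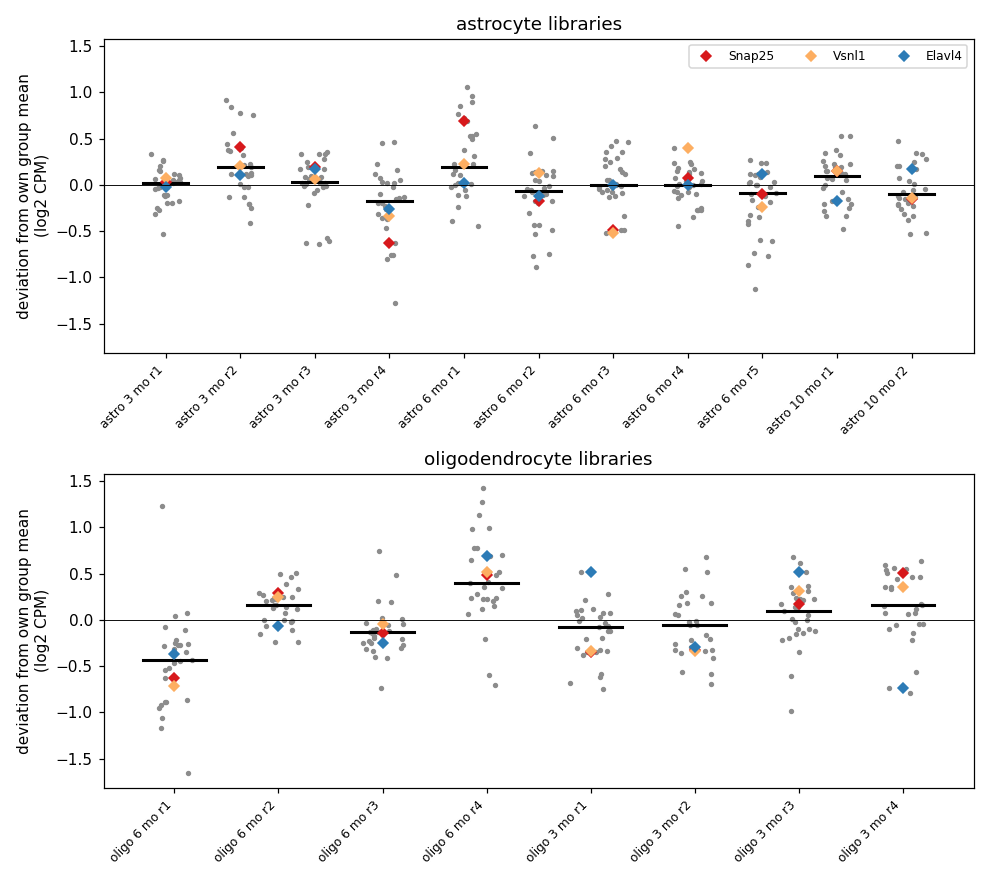
Deviation of each tested gene from the mean of its own group in log2 CPM, with 1 grey point per gene, a black bar at the median over genes and diamonds for Snap25, Vsnl1 and Elavl4, by library of astrocytes (top) and oligodendrocytes (bottom). In oligodendrocytes of 6 months the medians lie at -0.44, 0.16, -0.13 and 0.40 in replicates 1 to 4, and Snap25 and Vsnl1 lie close together in every oligodendrocyte library, while Elavl4 departs from them most in the first and the fourth replicate of 3 months.

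Ratios to Snap25 were also compared between ages. In oligodendrocytes the ratio of Kif5c to Snap25 was 9.65 ± 1.06 at 6 months and 9.03 ± 1.30 at 3 months (TPM, SD, n = 4 each). That of Vsnl1 was 0.903 ± 0.0563 at 6 months and 1.02 ± 0.0862 at 3 months. That of Syn1 was 1.53 ± 0.469 at 6 months and 5.06 ± 1.23 at 3 months, and that of Mapt was 31.8 ± 7.31 at 6 months and 76.9 ± 23.8 at 3 months. In astrocytes the ratio of Vsnl1 to Snap25 was 0.921 ± 0.142 at 3 months (n = 4), 0.790 ± 0.180 at 6 months (n = 5) and 0.844 ± 0.00115 at 10 months (n = 2). That of Thy1 averaged 5.61, 10.6 and 7.93 at those ages, with libraries from 8.16 to 15.2 at 6 months, above all those of 3 months.

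In microglia counts of these genes were few. The 32 genes had 692 to 1415 counts per library in all, and 3 counts, taken as the floor, correspond to between 0.535 and 0.724 CPM. Levels came from a 3′ end kit and are not set beside those of the other tables. Gad1 and Slc17a6 had no count in any of the 7 libraries, which allows up to that floor in a library. Slc17a7 had 0, 0.549, 0 and 0.514 CPM at 10 months and no count at 3 months. Snap25 stood at 5.56, 1.65, 1.81 and 8.05 CPM at 10 months, against 0.363, 3.85 and 4.39 CPM at 3 months, and the groups overlapped.

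A few genes stood above this background in every microglial library. Dlg4 had 29.5 to 47.0 CPM at 10 months and 41.5 to 65.8 CPM at 3 months. Mapt had 29.9 to 68.8 CPM at 10 months and 32.1 to 64.9 CPM at 3 months. Elavl4 had 11.3, 28.3, 26.1 and 21.6 CPM at 10 months, against 29.9, 37.1 and 52.5 CPM at 3 months, with no overlap and a log2 fold change of -0.86 ± 0.29 that did not pass (edgeR adjusted p = 0.127). Of 17 genes that passed the filter none was called, where 1.94% of all 12320 tested genes were called higher and 1.27% lower, 3.21% in all. Without adjustment 2 of the 17, Syp and Elavl4, had a p under 0.05, as did 16.9% of all genes. The median log2 fold change was 0.71 over the 17 genes and 0.00466 over all genes, with 14 of the 17 (82.4%) positive, against 50.3% of all genes. The log2 ratio of the summed level was 0.0149, so the median is not read as a rise of the set. The largest log2 fold change, that of Syp, was 2.83 ± 1.12 (edgeR adjusted p = 0.197). Syp had 5, 0 and 1 counts at 3 months and 12, 20, 17 and 16 at 10 months. It therefore passed the filter only through the libraries of 10 months. Other genes of the 17 were also low at 3 months. Rbfox3 had 0, 12 and 2 counts at 3 months and 22, 20, 9 and 40 at 10 months. Thy1 had 13, 0 and 0 counts at 3 months and 19, 6, 0 and 25 at 10 months. Low genes can pass the filter through the group where they are high, so the share of positive values is not read as a result. DESeq2 called 403 genes higher and 345 lower at 10 months over the whole table.

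In the cultured astrocytes Slc17a6 and Slc32a1 are not listed, and Slc17a7, Gad2 and Rbfox3 did not pass the filter. Rbfox3 lay between 0.0908 and 0.281 CPM with Omomyc and between 0.159 and 0.395 CPM with vehicle, where 3 counts correspond to 0.0801 to 0.0996 CPM. Snap25 lay between 0.635 and 0.757 CPM with Omomyc and between 0.796 and 0.921 CPM with vehicle. Stmn2 had 107, 107 and 90.1 CPM with Omomyc and 112, 115 and 88.9 CPM with vehicle. Uchl1 had 225, 212 and 202 CPM with Omomyc and 258, 321 and 222 CPM with vehicle. Thy1 had 118 to 140 CPM with Omomyc and 121 to 148.5 CPM with vehicle. Of these genes Rbfox3 was near the floor, while Snap25 was above it in all 6 libraries.

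None of the 27 tested genes was called with Omomyc in the fit without pairing, in which 0.0186% of all 16119 genes were called. Without adjustment 4 of the 27, which were Stmn3, Tubb3, Map2 and Uchl1, had a p under 0.05 in that edgeR fit, as did 6.34% of all genes. The median log2 fold change was -0.06 over the 27 and -0.00187 over all genes. Same-numbered cultures varied together, and with the replicate number as a block 360 genes were called higher and 296 lower, among them Tubb3. Tubb3 stood at 45.4, 48.9 and 54.7 CPM with Omomyc, against 63.8, 87.1 and 70.7 CPM with vehicle, with no overlap between the groups. Its log2 fold change was -0.56 ± 0.09 in the blocked fit (edgeR adjusted p = 0.0152), -0.57 ± 0.13 in the unpaired fit (edgeR adjusted p = 0.524) and -0.57 ± 0.15 in DESeq2 (adjusted p = 0.0386), which called 18 genes higher and 79 lower. In the unpaired fit Snap25 (-0.28 ± 0.21), Nefl (-0.59 ± 0.28), Syt1 (-0.06 ± 0.18), Gad1 (-0.29 ± 0.32), Stmn2 (-0.06 ± 0.12), Gap43 (-0.14 ± 0.09), Mapt (0.02 ± 0.10) and Thy1 (-0.01 ± 0.11) did not pass.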

How the data were processed

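The authors deposited raw counts per gene for each library, without normalization, and, for astrocytes and oligodendrocytes, TPM of the same libraries. Per the submitters' processing notes, reads were handled with tools that included featureCounts 2.0.1, STAR 2.7.7a, DESeq2, UMI-tools 1.0.1 and fastp. Which of the builds they name belongs to which table, and whether reads were counted by strand, are not given in the sources used here. Per the labels' protocols, astrocyte and oligodendrocyte libraries were whole-transcript poly(A) libraries with molecular identifiers, microglial libraries 3′ end libraries, and culture libraries mRNA libraries with identifier adapters. Tables of different kits were therefore tested separately.

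Counts were fitted over the whole table in edgeR 4.0.16 (R 4.3.3) by quasi-likelihood (robust dispersion, TMM scaling, group means), after filterByExpr with min.count 10. F tests were adjusted by Benjamini-Hochberg over every gene that passed. A gene was called at an adjusted p under 0.05. The 3 ages of astrocytes shared 1 fit, and libraries of 3 and 6 months of both sorted cell types shared another. CPM are counts scaled with TMM factors. Log2 CPM for within-group deviations used a prior count of 2. The fits were tested on simulated counts with 200 changed genes.

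The 32 genes, their role groups and the 18 lists of other genes were chosen with earlier results of these data known. Named in every comparison were Snap25, Syt1, Rbfox3, Stmn2, Nefl, Slc17a7, Gad1, Gap43, Mapt and Thy1 where tested, then up to 12 called genes by smallest p and up to 4 per list of other genes. Other genes that the text names were taken up after their values were seen. Alternatives were RLE scaling, no filter, leaving out genes above 1% of counts, DESeq2 1.42.0 and a replicate block. Further ones were a fit restricted to the 2 ages in question and dropping every library in turn. The summed level was also taken with deposited TPM, without the most abundant gene and over 26 genes. These 26 are the genes outside the 6 named above as known also from glia or precursors. They were not all absent from glial libraries, since in culture Dlg4 stood between 113 and 130 CPM and Uchl1 between 202 and 321 CPM. Same-numbered Omomyc and vehicle cultures deviated together (correlations of 0.63, 0.43 and 0.68 over genes), so the blocked value stands beside that result. Same-numbered libraries of the other comparisons did not. Gene positions come from GENCODE vM21.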

Additional observations from a re-analysis of the deposited data

Results flagged for a closer look

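Outliers within groups of 4 or 5 libraries were looked for in 124 sets of values, and 7 were found, where chance gives about 1 in 20. In oligodendrocytes of 6 months, Tubb3 stood at 171 CPM in the first replicate, against 48.2 to 61.6 CPM in the others, and Syt1 at 3.60 CPM in the fourth, against 1.71 to 1.998 CPM. In oligodendrocytes of 3 months, Kif5c stood at 201 CPM in the fourth replicate, against 118 to 122 CPM. In astrocytes of 6 months, the first replicate stood apart with Camk2a at 13.6 CPM, against 6.24 to 7.85 CPM, and with Gria2 at 256 CPM, against 361 to 385 CPM, and the fifth with Mapt at 360 CPM, against 474 to 520 CPM. In astrocytes of 3 months, Thy1 stood at 44.8 CPM in the fourth replicate, against 61.7 to 64.6 CPM.

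For 14 genes the age effect of 6 over 3 months differed between the cell types by the test of the difference. The log2 age effect in astrocytes minus that in oligodendrocytes was -2.74 for Slc17a7, -2.24 for Vsnl1, -2.20 for Snap25, -2.18 for Nefm, -2.13 for Nrgn, -1.81 for Kif5c, -1.74 for Camk2a, -1.71 for Nefl, -1.36 for Celf4, -1.34 for Stmn2, -1.07 for Stmn3, -0.74 for Syp and -0.58 for Mapt. It was 0.85 for Syn2, whose exons overlap Timp4. Endothelial markers differed in the same direction, and their part was not tested.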

How the results depend on the processing

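Counts of called genes among the 32 kept within 1.5 times under RLE scaling and without genes above 1% of counts in all 8 comparisons. With a replicate block, which pairs libraries only in the cultures, the counts were 5 in place of 9 for astrocytes at 6 over 3 months, 1 in place of 3 at 10 over 3 months, 9 in place of 14 for the difference of age effects and 1 in place of 0 for Omomyc. DESeq2 called 1 for Omomyc. With no filter the count was 5 in place of 1 for astrocytes at 10 over 6 months and 1 in place of 0 for microglia.

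The log2 ratio of the summed level depended on which genes enter the sum, of which Mapt is the largest in sorted cells. In oligodendrocytes (0.32 for CPM) it was 0.0229 with deposited TPM and 0.60 without Mapt. Over the 26 genes outside the 6 named above as known also from glia or precursors it was 0.88. Kif5c was the largest part of that sum. At 6 months it held 286 to 512 CPM, where the sum was 545 to 938 CPM. At 3 months it held 118 to 201 CPM, where the sum was 349 to 496 CPM. The ratio without Kif5c was not computed, so 0.88 is not read as a rise shared by the 26 genes. In astrocytes at 6 over 3 months (-0.13) it was -0.0534 with TPM, 0.0561 without Mapt and -0.00122 with plain library totals, an alternative chosen after seeing the data. At 10 over 3 months (-0.03) it was 0.18 with TPM, 0.14 over the 26 genes, 0.12 without Mapt and 0.15 with plain totals. At 10 over 6 months (0.11) it was 0.23 with TPM and 0.29 over the 26 genes. For astrocytes over oligodendrocytes (-0.27) it was -0.77 with TPM, -0.50 over the 26 genes and 0.53 without Mapt, so the summed level has no settled direction there or in astrocytes with age. The cause was not tested.

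With each library left out in turn, counts ranged from 3 to 8 (astrocytes, 6 over 3 months), 1 to 5 (10 over 3), 0 to 4 (10 over 6), 7 to 19 (oligodendrocytes), 23 to 25 (astrocytes over oligodendrocytes) and 10 to 16 (difference of age effects), and were 0 throughout for microglia and Omomyc. Medians ranged from -0.31 to -0.13, from -0.0292 to 0.23, from 0.12 to 0.30, from 0.25 to 0.64, from -0.34 to 0.0913 and from -0.84 to -0.54 in those 6 comparisons, from 0.12 to 0.87 in microglia and from -0.11 to -0.00675 for Omomyc. In microglia 15 of the 32 genes were not tested, and genes absent and genes missed at this depth cannot be told apart.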
